A study of Mus musculus with 5 samples.

Results

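H19, Meg3 and Rasgrf1 stand for the paternally methylated imprint control regions, the stretches of DNA that sperm delivers methylated and the egg delivers unmethylated. Their CpGs were taken by position, in the build mm9, from 3 intervals. These are chr7:149760000-149770000 (H19 and its control region), chr12:110760000-110785000 (control region and promoter of Meg3) and chr9:89765000-89780000 (upstream of Rasgrf1). The 5 libraries listed 45 CpGs there, of 1097424 on the autosomes and the X chromosome, with 14 at H19, 29 at Meg3 and 2 at Rasgrf1. The assay was reduced representation bisulfite sequencing (RRBS). MspI cuts the DNA at CCGG, bisulfite converts unmethylated cytosines, and the methylation level is the share of reads that still show C. The libraries came from mouse embryonic stem (ES) cells, 1 library each of WT, Fbxl10 T/T, Ezh2 -/-, Eed -/- and Ring1B -/-.

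WT and Fbxl10 T/T carried the strain label C57BL/6J, were grown in serum with LIF on feeder cells that were removed by plating, and were harvested at passage 17. The Ring1B -/-, Eed -/- and Ezh2 -/- cells were grown in serum with LIF, with no strain, feeder or passage given. FBXL10 is a CXXC-domain protein of CpG islands. Ring1B is the catalytic subunit of Polycomb repressive complex 1. Ezh2 is the methyltransferase of Polycomb repressive complex 2, and Eed is one of its core subunits. The nature of the T allele and the number of clones per genotype are not given in the sources used here. Each genotype has 1 library, so that none of the differences was checked in replicates. For the 3 Polycomb mutants, genotype, cell line, strain and culture cannot be told apart. For Fbxl10 T/T against WT, which share strain label and passage, genotype cannot be told apart from cell line or library.

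In an imprinted region the copies from the parents differ. The paternal copy of these control regions is methylated in the germ line, and the mark is kept in the tissues of the offspring. At H19 the unmethylated maternal control region binds CTCF, which insulates the growth factor gene Igf2 from its enhancers, and the noncoding RNA H19 is made from the maternal copy. At Meg3, a noncoding RNA of the Dlk1-Dio3 domain, the maternal copy is expressed and the methylated paternal copy is silent. Rasgrf1, a guanine nucleotide exchange factor, is expressed from the paternal copy, where its upstream region is methylated. Cultured ES cells are known to gain or lose such marks. The tables do not tell the parental copies apart, so a level here is over both copies.

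The sequence around a CpG can be read only where the 5-base contexts of the tables overlap. They spelled 239 bases at H19, 534 at Meg3 and 46 at Rasgrf1, with no conflict between contexts. The following 7 stretches, read 5′ to 3′ on the + strand with the measured CpGs in capitals, hold CpGs on which the results turn or, at Rasgrf1, the only stretch of 12 or more bases that could be read.
H19, chr7:149764046-149764076: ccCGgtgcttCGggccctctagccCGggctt
H19, chr7:149764137-149764149: atggcccCGcCGg
Meg3, chr12:110763991-110764003: aaggaagtgcCGg
Meg3, chr12:110764897-110764917: ttcaagtCGgctacagcacat
Meg3, chr12:110779991-110780024: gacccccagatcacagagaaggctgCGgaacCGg
Meg3, chr12:110784394-110784417: cagggcCGgcctgccatcaCGcag
Rasgrf1, chr9:89769519-89769531: ttggtcatgcCGg
In the first stretch the outer CpGs lie inside CCGG and the middle one does not. No gene model of mm9 was used here, so CpGs are placed by coordinate and not by exon. The intervals also hold H19 itself and the promoter of Meg3. Which of the measured CpGs lie in a control region was not determined.

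Coverage of the 3 intervals was thin, and most CpGs sat at MspI sites. Of the 45 CpGs, 32 lay inside CCGG and 13 outside, and all CpGs at Rasgrf1 lay inside. Within a MspI fragment the CpGs share their reads, and the 45 CpGs fell into 22 groups in which neighbours lie within 100 bases. WT listed 42 of the CpGs and Fbxl10 T/T 36, and 24 had at least 10 reads in both. Ring1B -/- listed 13, Eed -/- 16 and Ezh2 -/- 26, with at most 6, 5 and 9 reads at any CpG. Over the whole tables the median was 33 reads per CpG in WT, 23 in Fbxl10 T/T and 3 in each Polycomb mutant, with 1766681 to 43079673 reads at CpGs in all. All intervals below are 95% Wilson intervals (Newcombe intervals for differences). They cover counting error only and are too narrow, because CpGs close together share reads.

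In WT the covered CpGs of all 3 regions were mostly methylated, and Meg3 stood highest. Meg3 read 89.5% of 570 reads (86.7 to 91.7%), Rasgrf1 78.1% of 32 (61.2 to 89.0%) and H19 67.5% of 424 (62.9 to 71.7%). A read that spans several CpGs adds to the count at each. The intervals of Meg3 and H19 did not overlap, while that of Rasgrf1 overlapped both. Of the 25 CpGs with at least 10 WT reads, 19 had an interval wholly above 50%, among them 12 of 13 at Meg3, 6 of 10 at H19 and 1 of 2 at Rasgrf1. Inside and outside CCGG the WT level was 88.7% and 90.7% at Meg3, and 70.1% and 58.1% at H19.

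**Figure D1:**
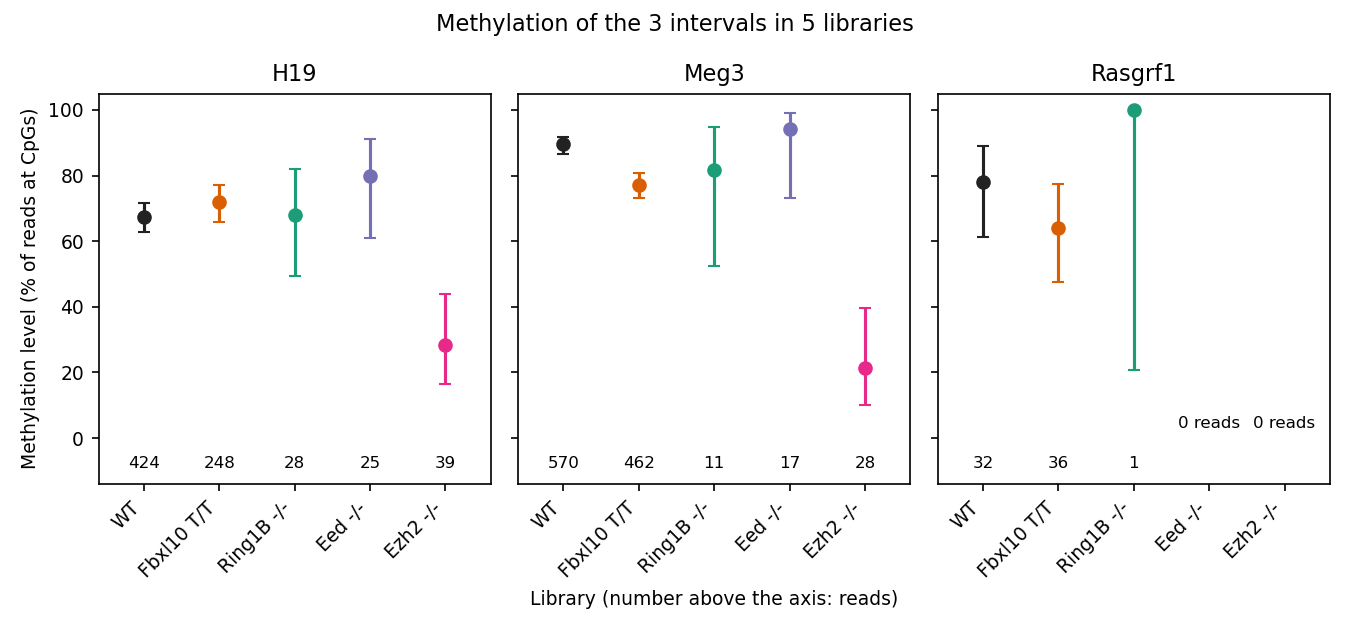
Methylation level (% of reads at CpGs, all CpGs of each interval) in the 5 libraries, with 95% Wilson intervals as bars and the number of reads above the axis. Ezh2 -/- lies at 28.2% at H19 and 21.4% at Meg3, below the other libraries, and has no reads at Rasgrf1.

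H19 held 3 well covered groups of CpGs, and they differed from each other in WT. The first, at 149761873 and 149761917, was almost fully methylated, with 96.9% of 64 reads (89.3 to 99.1%). The second, 6 CpGs from 149764048 to 149764147, read 52.7% of 224 reads (46.2 to 59.1%). The third, at 149767047 and 149767092, read 78.0% of 132 reads (70.2 to 84.2%). Only the second group stood near an intermediate level, and within it WT ran from 21.6% at 149764070 to 80.5% at 149764147.

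At H19, Fbxl10 T/T was lower than WT in the first group and higher in the second. The first group read 74.4% of 39 reads in Fbxl10 T/T (58.9 to 85.4%) against 96.9% in WT, and these intervals did not overlap. The second group read 70.1% of 117 reads (61.3 to 77.6%) against 52.7%, again without overlap. In the first group the CpG at 149761873 went from 96.1% of 51 reads to 73.3% of 30, a difference of -22.7 points (-40.8 to -7.18) that passed the test described below (adjusted p = 0.0216, exact) but not its size limit of 25 points. The third group read 73.3% of 86 reads (63.1 to 81.5%) against 78.0%, within the counting error. The differences thus went in opposite directions inside a single interval, and over all 12 CpGs listed in both libraries they left H19 at 71.8% in Fbxl10 T/T and 67.5% in WT, a difference of 4.24 points (-3.06 to 11.2).

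The largest differences in the second group were at the CpGs of the printed 31-base stretch. At 149764048, 12 of 17 reads were methylated in Fbxl10 T/T (70.6%) and 21 of 40 in WT (52.5%). At 149764056, the CpG outside CCGG, 14 of 17 reads were methylated (82.4%) against 19 of 40 (47.5%). At 149764070, 15 of 27 reads were methylated (55.6%) against 11 of 51 (21.6%). All 3 were higher in Fbxl10 T/T, and 149764070 was called up, by 34.0 points (11.6 to 53.1, adjusted p = 0.0236 by Fisher's exact test, two-sided, Benjamini-Hochberg over all CpGs tested). The difference of 34.9 points at 149764056 (7.07 to 53.4) did not pass (adjusted p = 0.0793 by the same exact test). Further along the group, outside CCGG, the CpGs at 149764096 and 149764144 differed by -3.64 (-39.3 to 32.9) and -4.98 points (-28.7 to 17.9), both within counting error. With the WT reads thinned to the depth of Fbxl10 T/T, 149764070 differed by 25.9 points and was no longer called.

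At Meg3, 4 groups were well covered, and WT was high in each of them. The groups at 110763922 to 110764001, 110764888 to 110764946, 110778801 to 110778854 and 110779987 to 110780022 read 92.9% of 56 reads, 92.5% of 201, 92.6% of 122 and 86.6% of 164 in WT. In Fbxl10 T/T they read 48.2% of 56 reads (35.7 to 61.0%), 81.1% of 143 (73.9 to 86.7%), 83.8% of 117 (76.0 to 89.4%) and 91.4% of 116 (84.9 to 95.3%). The first group lay far below WT (83.0 to 97.2%), the second lay below it by a small margin (WT 88.1 to 95.4%), and the intervals of the other two overlapped those of WT. Over the 21 CpGs listed in both, Meg3 read 89.6% in WT and 77.0% in Fbxl10 T/T, a difference of -12.6 points (-17.2 to -7.99), with no test.

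Part of the difference at Meg3 rested on the first group. Over all CpGs listed in both libraries but those of the first group, the difference was -8.21 points (-13.0 to -3.58). Inside CCGG, the level was 72.5% of 302 reads against 88.6% of 351 in WT, a difference of -16.1 points (-22.1 to -10.1). Without the first group it was -9.75 points (-16.2 to -3.41), and at the CpGs inside CCGG listed in all 5 libraries it was -1.80 points. Outside CCGG it was 85.5% of 159 reads against 91.1% of 214, a difference of -5.59 points (-12.6 to 0.919) that includes 0. The CpG at 110763922 fell from 44 of 47 reads (93.6%) to 23 of 49 (46.9%), a difference of -46.7 points (-60.6 to -29.3, adjusted p = 5.07e-06 by Fisher's exact test). Its neighbour 110764001, in the printed 13-base stretch, had 8 of 9 reads methylated in WT and 4 of 7 in Fbxl10 T/T. The CpG at 110764946 fell from 42 of 45 reads (93.3%) to 20 of 31 (64.5%), a difference of -28.8 points (adjusted p = 0.0118 by Fisher's exact test). In the same group the other CpG inside CCGG, 110764888, read 93.9% in WT and 92.0% in Fbxl10 T/T. Outside CCGG, 110764904, in the printed 21-base stretch, read 97.0% of 33 reads in WT and 88.0% of 25 in Fbxl10 T/T. The CpGs at 110764923 and 110764928 differed by -7.03 and -8.46 points, neither past the threshold. At 110780016, in the printed 34-base stretch, WT read 88.7% of 53 reads and Fbxl10 T/T 91.2% of 34. At 110778847 the levels were 94.3% and 88.6% of 35 reads each. The exception to the high WT level lay at 110784400, in the printed 24-base stretch, where 5 of 10 reads were methylated in WT and 4 of 17 in Fbxl10 T/T, a difference within counting error.

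Rasgrf1 could be read at 2 CpGs only. At 89769450, 13 of 18 reads were methylated in WT (72.2%) and 10 of 17 in Fbxl10 T/T (58.8%). At 89769529, the CpG of the printed stretch, the counts were 12 of 14 (85.7%) and 13 of 19 (68.4%). Together they differed by -14.2 points (-33.8 to 7.46), so that a difference was not detectable at this depth. Ring1B -/- had 1 methylated read there, and Eed -/- and Ezh2 -/- had none.

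**Figure D2:**
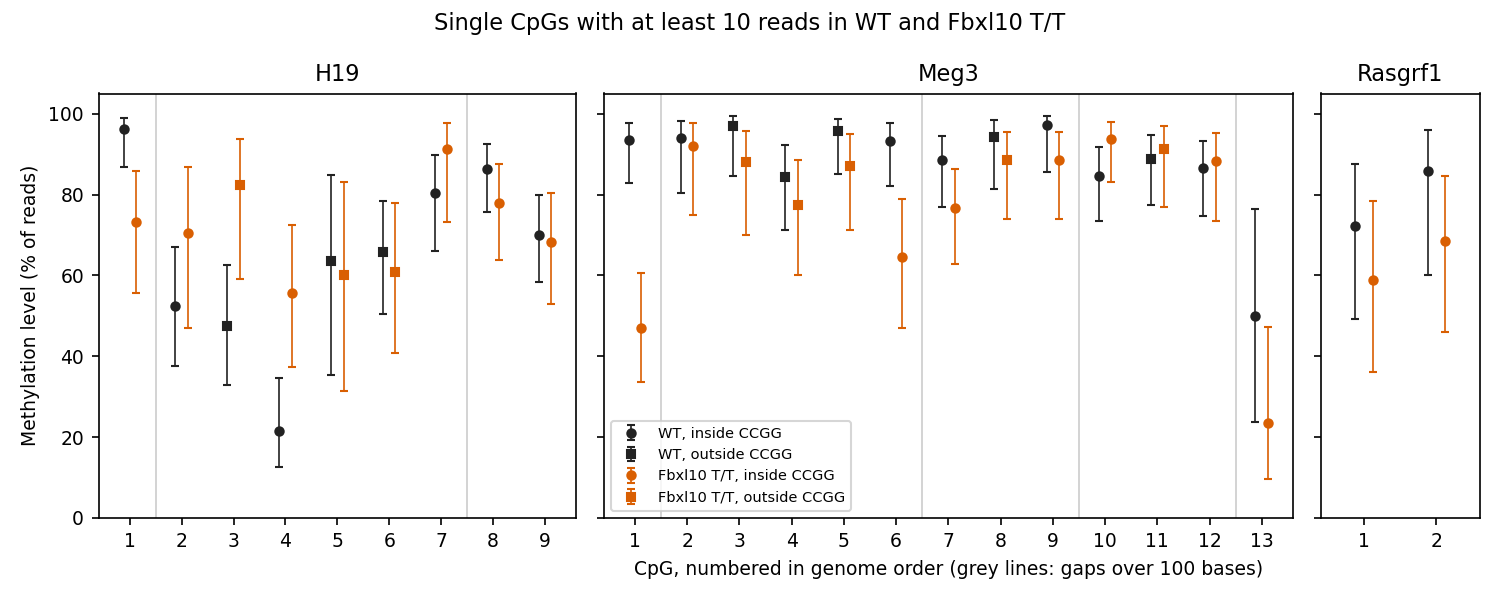
Methylation level (% of reads) of the 24 CpGs with at least 10 reads in WT (black) and Fbxl10 T/T (orange), in genome order, with 95% Wilson intervals as bars, circles for CpGs inside CCGG and squares for those outside. The CpGs at positions 2 to 4 of H19 are higher in Fbxl10 T/T, and those at positions 1 and 6 of Meg3 are lower.

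The count of called CpGs is given beside that of the whole table. Of the 24 CpGs tested in Fbxl10 T/T, 1 was called up and 2 down, where 13.9% of all 628587 CpGs tested were called up and 6.61% down. A call needed an adjusted p under 0.05 and a difference of at least 25 points. The 3 called CpGs are named for that reason, after their values were seen, and all 3 lie inside CCGG. None of the 8 tested CpGs outside CCGG was called (by an unadjusted p under 0.05, 1 of them, 149764056, differed), against 16.5% up and 4.35% down over all CpGs outside CCGG. Of the 24 CpGs, 7 were higher and 17 lower in Fbxl10 T/T, with a median difference of -6.37 points. The median over all CpGs tested was 0, and the share of higher and lower CpGs among them was not counted. The 2 medians are not on a like footing. WT read 80.0% over the 3 regions and 26.97% over all listed CpGs, and a CpG low in WT has little room to fall.

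At sites picked for a high WT level, Fbxl10 T/T also read lower elsewhere, and so did the Polycomb mutants. Over all CpGs with at least 10 reads and 70% or more in WT, the level went from 88.5% in WT to 72.2% in Fbxl10 T/T. This class stood at 74.8% for Ring1B -/-, 79.0% for Eed -/- and 71.7% for Ezh2 -/-, each over the CpGs it listed. Since the class was chosen by its WT level, a fall from WT there cannot be assigned to Fbxl10 T/T. Over the 19 CpGs of the 3 regions in that class the level went from 88.2% in WT to 78.7% in Fbxl10 T/T (75.2 to 81.7%). Inside CCGG, the 14 CpGs of the regions in that class read 75.9% in Fbxl10 T/T (71.8 to 79.6%) and all such CpGs 73.8%, within the counting error. Outside CCGG, 5 CpGs of the regions, all at Meg3, read 86.5% (80.3 to 91.0%), and all 59552 such CpGs read 68.8%. Within 100 kb on either side of Meg3, CpGs of this class read 54.5% in Fbxl10 T/T (51.5 to 57.5%). Beside H19 and Rasgrf1 they read 65.2% and 66.1%.

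Windows were tested next. No 1-kb window of the 3 intervals held the 5 CpGs outside CCGG that the test asked for, in any comparison. With all CpGs, 2 such windows could be tested in Fbxl10 T/T, and neither reached the 20 points that a call on a window needs. At H19 from 149764001 to 149765000 the level went from 52.7% to 70.1% (17.4 points, adjusted p = 0.00613, exact), and at Meg3 from 110764001 to 110765000 from 92.4% to 80.0% (-12.4 points, adjusted p = 0.00178, exact). By this rule 20.1% of all windows were called up and 10.3% down. Windows of 5 kb with all CpGs and at least 5 reads were then tested, a choice made after the data were seen. Of 6 such windows 1 was called in Fbxl10 T/T, at Meg3 from 110760001 to 110765000. It went from 92.3% of 259 reads to 72.0% of 200, by -20.3 points (-27.4 to -13.3, adjusted p = 7.06e-08 by Fisher's exact test over all windows). In all, 27.0% of 87928 windows were called down and 7.37% up, and 35.4% were called down among windows in the WT range of these 6. That call was lost with CpGs outside CCGG only (-7.96 points) and after centring on the median of all windows (-11.8 points, 18.2% of all windows called down). With at least 3 CpGs per window, or with 1 CpG per group of neighbours, 1 window was again called down, against 23.7% and 21.8% of all windows. The other 5 windows differed by -14.2 to 8.23 points.

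In Ezh2 -/-, H19 and Meg3 read far lower than in any other library. H19 read 28.2% of 39 reads (16.5 to 43.8%), where WT read 67.5%, Fbxl10 T/T 71.8%, Ring1B -/- 67.9% of 28 reads (49.3 to 82.1%) and Eed -/- 80.0% of 25 (60.9 to 91.1%). Meg3 read 21.4% of 28 reads (10.2 to 39.5%), where WT read 89.5%, Fbxl10 T/T 77.1%, Ring1B -/- 81.8% of 11 reads (52.3 to 94.9%) and Eed -/- 94.1% of 17 (73.0 to 99.0%). At both regions the Ezh2 -/- interval did not overlap that of any other library. Rasgrf1 had no reads in Ezh2 -/- and was not measured there. Matched to the CpGs listed in both libraries, Ezh2 -/- differed from WT by -37.8 points at H19 (-50.4 to -21.4) and by -66.8 points at Meg3 (-79.1 to -47.7).

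The low reads at Meg3 were spread over the interval, whereas at H19 they were confined to 2 of 3 groups. The 4 well covered Meg3 groups read 0 of 2, 2 of 7, 1 of 5 and 3 of 9 reads methylated in Ezh2 -/-, each a lower share than in WT. At H19 the second group read 3 of 26 (11.5%, 4.0 to 29.0%) and the third 1 of 6 (16.7%, 3.01 to 56.4%). The first H19 group stayed methylated, at 7 of 7 reads (64.6 to 100.0%). Within the printed 31-base stretch, Ezh2 -/- had 1 of 8 reads methylated at 149764048, 1 of 8 at 149764056 and 1 of 9 at 149764070. Eed -/- had 4 of 5, 4 of 5 and 2 of 5 there, and Ring1B -/- 2 of 5, 4 of 5 and 2 of 5.

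**Figure D3:**
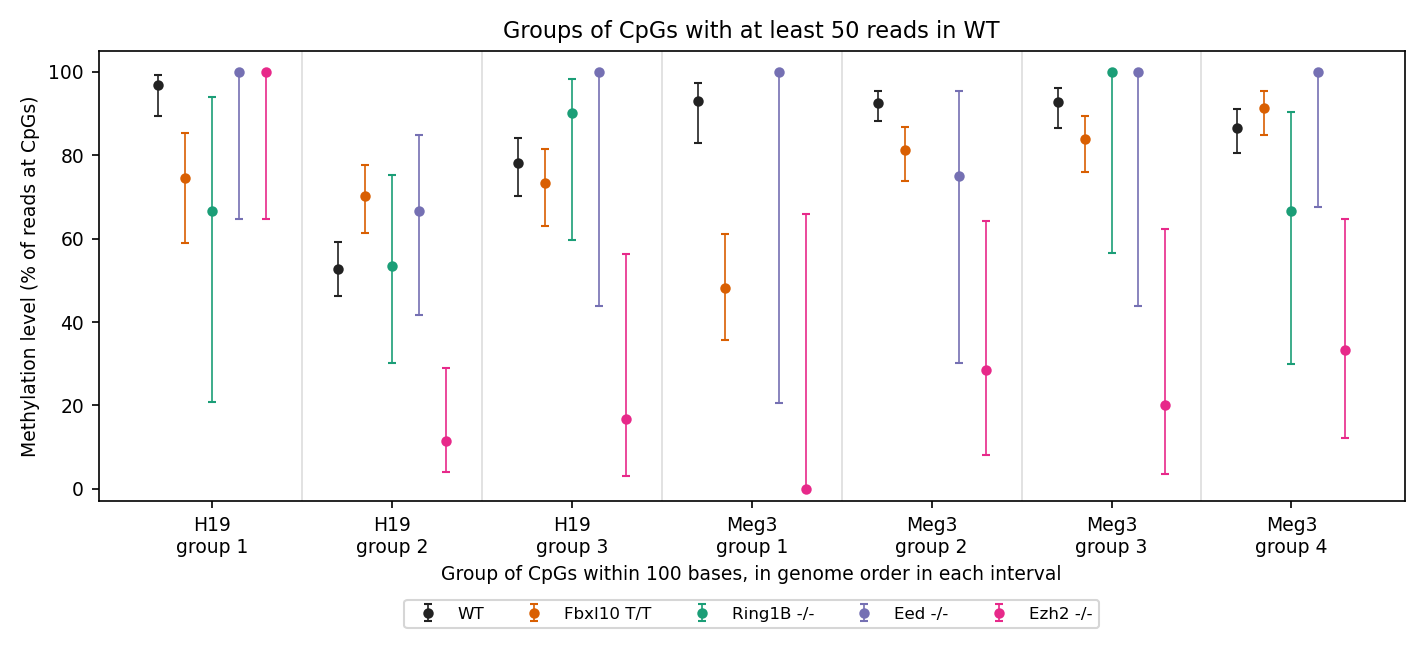
Methylation level (% of reads at CpGs) of the 3 groups of CpGs at H19 and the 4 at Meg3 with at least 50 reads in WT, for the 5 libraries, with 95% Wilson intervals as bars. Ezh2 -/- has the lowest level of the libraries with reads in every group but the first of H19, where its 7 reads are all methylated.

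The lower level in Ezh2 -/- was seen inside and outside CCGG. At Meg3 the difference from WT was -70.2 points inside (-82.7 to -45.7) and -61.5 outside (-80.9 to -30.8). These rest on 3 of 16 and 3 of 10 methylated reads in Ezh2 -/-. At H19 the difference was -35.3 points inside (-50.3 to -16.6) and -39.9 outside (-55.9 to -4.86), from 10 of 30 and 1 of 9 reads. The CpGs outside CCGG lie in groups that also hold CpGs inside, so these counts are not independent. Since CpGs on a fragment share reads, each group was also reduced to its deepest CpG. Then 1 of 12 reads was methylated at Meg3 (8.33%, 1.49 to 35.4%) and 7 of 18 at H19 (38.9%, 20.3 to 61.4%), 6 of the 7 from the first group. WT counted this way read 85.8% at Meg3 (80.6 to 89.7%) and 63.4% at H19 (56.0 to 70.2%). At Meg3 the Ezh2 -/- interval still lay below those of the other 4 libraries. At H19 it overlapped those of WT, Fbxl10 T/T (61.2 to 78.4%) and Ring1B -/- (38.8 to 83.7%). At all 26 CpGs listed in Ezh2 -/-, none of the reads counted for the opposite base showed a base other than G. A CpG without any such read also passes this count, so it cannot decide whether a base change was present. By the same count 39 of 42 CpGs passed in WT and 34 of 36 in Fbxl10 T/T. As both strands had been summed, that count includes reads on which such a change would not show.

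All 5 windows of 5 kb that could be tested in Ezh2 -/- were called down, 2 at H19 and 3 at Meg3, where 9.04% of all 42620 windows were called down and 0.568% up. Among the 19356 windows within the same range of WT levels, 15.4% were called down. At H19 the window from 149760001 to 149765000 fell from 58.3% of 206 reads to 30.3% of 33 (adjusted p = 0.0376, Fisher's exact test), and the next one from 78.0% of 132 to 16.7% of 6 (adjusted p = 0.0333, same exact test). At Meg3 the window from 110760001 fell from 92.6% of 257 reads to 22.2% of 9 (adjusted p = 1.13e-04, same exact test). The window from 110775001 fell from 90.1% of 181 to 16.7% of 6 (adjusted p = 0.00295, same exact test), and that from 110780001 from 84.3% of 115 to 33.3% of 9 (adjusted p = 0.0200, same exact test). The median difference of the 5 windows was -61.4 points, against -14.5 over the windows in their WT range. Of the windows in that range, 8.91% read as low in Ezh2 -/- as the highest of the 5 (33.3%) or lower. With at least 3 CpGs per window 4 were called down (10.6% of all windows), and after centring on the median of all windows 5 (8.50%). These tests compare the reads of 2 libraries and count shared reads more than once. With 1 CpG per group, 1 of the 4 windows tested was called, at Meg3 from 110760001 (-93.8 points, 0 of 3 reads in Ezh2 -/-), against 1.53% of all windows.

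**Figure D4:**
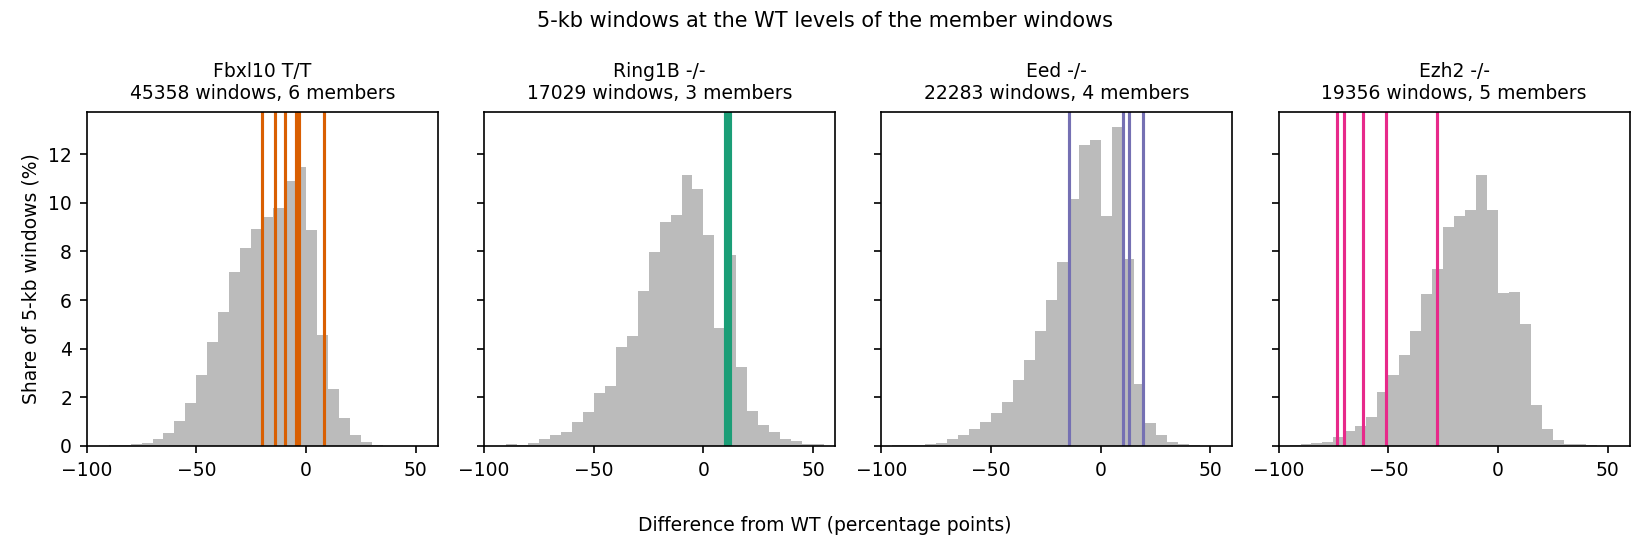
Distribution of the difference from WT (percentage points) over the 5-kb windows whose WT level lies in the range of the member windows, as the share of windows per bin of 5 points, for each mutant. Coloured lines mark the windows of H19, Meg3 and Rasgrf1, which in Ezh2 -/- lie at -73.4 to -27.9 points.

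Flanking CpGs that are methylated in WT read higher than the regions in the Ezh2 -/- library. Within 100 kb on either side, CpGs with 10 or more reads and at least 70% in WT read 72.8% of 103 reads in Ezh2 -/- beside H19 (63.5 to 80.5%) and 67.3% of 52 beside Meg3 (53.8 to 78.5%). Over all flanking CpGs, whatever their WT level, Ezh2 -/- read 43.7% beside H19 (37.8 to 49.7%), where WT read 32.1%. Beside Meg3 it read 30.3% of 218 reads (24.6 to 36.7%), within the interval of the Meg3 region itself, where WT read 45.6%. Over the whole table CpGs of this class read 71.7% in Ezh2 -/-, and 71.8% where fewer than 10 Ezh2 -/- reads covered them. The 16 CpGs of the regions in this class read 40.0% of 35 reads (25.6 to 56.4%), including the 7 methylated reads of the first H19 group. At H19 this class had 6 of 6 reads methylated at 149761873, 1 of 1 at 149761917, 0 of 3 at 149767047 and 1 of 3 at 149767092. No CpG of the second H19 group with Ezh2 -/- reads is in the class. So few reads do not show that H19 alone lies below its flanks in this class.

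In Ring1B -/- and Eed -/- no window of these regions was called. Of the 5-kb windows, 3 were tested in Ring1B -/- and 4 in Eed -/-, with none at an unadjusted p under 0.05 by Fisher's exact test. Over all windows 7.47% were called down and 1.63% up in Ring1B -/-, and 4.39% and 0.628% in Eed -/-. The differences from WT were 7.35 points at H19 (-12.0 to 22.7) and -7.34 at Meg3 (-37.0 to 6.34) in Ring1B -/-. In Eed -/- they were 18.9 points at H19 (-1.03 to 31.6) and 3.55 at Meg3 (-17.7 to 9.37). At the 2 Meg3 CpGs outside CCGG that Ring1B -/- lists, 2 of 4 reads were methylated (-40.9 points, -76.2 to -5.05), 2 of 2 at 110778847 and 0 of 2 at 110780016. Intervals this wide do not show that the levels are alike.

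Set directly against the other Polycomb mutants, without WT, Ezh2 -/- was lower in every window that could be compared. Against Ring1B -/- the 3 windows differed by -83.3 to -40.2 points, and against Eed -/- the 4 windows by -83.3 to -46.0 points. All 3 intervals against Ring1B -/- and 3 of the 4 against Eed -/- lay below 0. None passed the correction over all windows (adjusted p from 0.220 to 0.957, Fisher's exact test). In those comparisons 0.517% of 33840 and 0.160% of 34328 windows were called down, and 0.0414% and 0.0379% up. At H19 from 149760001 to 149765000, for example, Ezh2 -/- read 31.2% of 32 reads and Eed -/- 77.3% of 22, a difference of -46.0 points (-64.3 to -19.0).

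For comparison, the promoters of 8 genes of maternally methylated regions were sought in the tables by the sequence contexts of the RefSeq promoters (GRCm38.p6), and 5 could be placed. Plagl1 and Grb10 had over 100 reads each in WT and Fbxl10 T/T. Plagl1 is a zinc finger gene whose promoter is methylated on the maternal copy. Its level was 25.9% of 259 WT reads at 8 CpGs (20.9 to 31.5%). In Fbxl10 T/T it was 59.1% of 110 reads at 10 CpGs (49.7 to 67.8%), a difference not tested. Each library was taken over its own CpGs, here and at Grb10. At Plagl1, Ring1B -/- had 0 of 5 reads methylated and Eed -/- 1 of 10, and Ezh2 -/- had no reads. The placed promoter of Grb10, a growth factor receptor adaptor, lies upstream of another Grb10 start, whose promoter could not be placed. Whether the placed promoter lies in the maternally methylated region was not determined, so its level is not given as that of an imprint. This promoter read 6.55% in WT and 72.0% in Fbxl10 T/T. In Ring1B -/-, Eed -/- and Ezh2 -/- it read 10.3%, 11.1% and 8.42%. The placed promoters of Nnat, Mest and Snrpn had at most 6 reads in any library.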

How the data were processed

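RRBS tables of 5 libraries of mouse ES cells were used, 1 per genotype. The submitters' processing notes name BSMAP 2.74 and the build mm9; trimming, duplicate removal and depth filters are not given in the sources used here. Per the file headers, the tables hold, for every cytosine, whole counts of reads with C and with C or T. Beside them stand the authors' expected counts, in which the total is scaled for possible C-to-T variants, and the deposited fraction, C over that total. No CpG was listed on the - strand, so reads of both strands are joined in 1 entry. Per the labels' protocol, indexed libraries were pooled before size selection and bisulfite conversion.

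A level here is the C count divided by the C-or-T count, with Wilson intervals, at CpGs listed in both libraries where a difference is given, inside and outside CCGG apart. End repair of MspI fragments can alter CpGs inside CCGG. Fisher's exact test (two-sided) was run over the whole table, on single CpGs with at least 10 reads in both libraries and on windows (1 kb: 5 CpGs outside CCGG and 30 reads, called at 20 points), with Benjamini-Hochberg adjustment. The tests were checked on simulated reads with 200 changed windows per comparison. The simulated reads were drawn apart for each CpG, so the check does not cover reads shared between neighbours. Tools were Python 3.11.15, numpy 2.4.6, pandas 2.3.3 and scipy 1.17.1.

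The members and lists were chosen with earlier results of these data known. CpGs outside CCGG were named by rule: per region the 3 largest rises and falls in Fbxl10 T/T. Any CpG with 10 reads in all 5 libraries was to be named as well (there was none). The CpGs inside CCGG that are described do not come from this rule, and their values had been seen. The 5-kb windows, the Meg3 value without its first group, the reduction to 1 CpG per group within 100 bases and the comparison of Ezh2 -/- with the other mutants were chosen after the data were seen. Promoters were placed in mm9 only by exact match of at least 8 listed cytosine contexts and no mismatch.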

Additional observations from a re-analysis of the deposited data

How the results depend on the processing

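The low levels of Ezh2 -/- at H19 and Meg3 kept their direction under a minimum of 5 reads (H19 only, since no Meg3 CpG had 5), the authors' expected counts, all CpGs, CpGs listed in all 5 libraries, capped reads and 1 CpG per group. The size at H19 inside CCGG moved to -15.5 points as an unweighted mean over CpGs with 5 reads. In Fbxl10 T/T the values followed the CpGs admitted: with CpGs listed in all 5 libraries, H19 differed from WT by 34.9 points outside and 12.2 points inside CCGG, and Meg3 inside CCGG by -1.80 points, or by -9.75 points without its first group. With 1 CpG per group, which also admits CpGs inside CCGG, Meg3 differed by -17.7 points in Fbxl10 T/T, 11.7 in Ring1B -/- and 9.52 in Eed -/-, against -5.59, -40.9 and -9.23 at CpGs outside CCGG. In Eed -/- Meg3 outside CCGG stood at 9.09 points with CpGs listed in all 5 libraries. The cause of these moves was not tested beyond the CpGs that each setting admits. Called CpGs in Fbxl10 T/T were 1 up and 2 down, 0 and 0 outside CCGG, and 0 up with WT reads thinned. Of 0 called windows of 1 kb, the count went to 1 down in Fbxl10 T/T with 5-kb windows that also admit CpGs inside CCGG and ask for fewer CpGs and reads (at least 1 or 3 CpGs, or 1 CpG per group). With 5-kb windows and CpGs outside CCGG it stayed at 0 in every mutant. In Ezh2 -/- it went to 5 down with 5-kb windows of all CpGs, before and after centring on the median of all windows, 4 with at least 3 CpGs and 1 with 1 CpG per group. Of the 5 called windows of Ezh2 -/-, the first of H19 lost its call outside CCGG (-39.9 points), where the other 4 could not be tested, and with 1 CpG per group it (-12.2), the second of H19 (-86.2) and the last of Meg3 (-62.5) lost theirs. No 1-kb window of the regions could be tested in Ring1B -/-, Eed -/- or Ezh2 -/- under any of the 1-kb settings tried. At a minimum of 10 reads per CpG no CpG of the regions remained in the 3 Polycomb mutants, and no CpG outside CCGG was listed at Rasgrf1. No paired analysis was possible because each genotype has 1 library and the labels number no replicates.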
